A study of Mus musculus with 12 samples.

Results

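The expression of 10 genes of the fibroblast growth factor (FGF) pathway was followed in the developing forelimb skeleton of the mouse. They were the receptor genes *Fgfr1*, *Fgfr2*, *Fgfr3* and *Fgfr4*, the kinase-less receptor gene *Fgfrl1*, the ligand gene *Fgf18*, and the feedback inhibitor genes *Spry1*, *Spry2*, *Spry4* and *Dusp6*. Each was found by its gene symbol among the 36186 rows of the expression table, and all 10 had a row. A filter on low values, at least 5 NRPKM in at least 3 of 12 libraries, was passed by 10936 rows and by 9 of the 10 genes. *Spry1* was the exception, with 5 NRPKM reached in 2 libraries. NRPKM is a read count scaled for the exon length of the gene and the depth of the library and then normalised between libraries by the authors, so levels of different genes can be set side by side.

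FGF ligands bind receptor tyrosine kinases at the cell surface together with heparan sulfate chains, and the activated receptors signal through FRS2, RAS and the ERK kinases. ERK activity in turn raises transcription of its own inhibitors, among them the Sprouty proteins and the phosphatase DUSP6, so their transcripts are often read as a measure of recent signalling. In the growth plate FGFR3 restrains the proliferation of chondrocytes, activating mutations of its gene cause achondroplasia, and FGF18 made by the perichondrium is one of its ligands. FGFR1 is known from perichondrium, hypertrophic chondrocytes and osteoblasts.

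All embryos were E15.5 and of mixed 129/CD-1 background, and the tissue was the forelimb zeugopod, the segment of the radius and ulna. Laser capture microdissection (LCM) gave 3 libraries for each of 3 compartments of wild type (WT) cartilage, resting, proliferative and hypertrophic, and 3 libraries of chondrocytes from *aadd* mutants. The *aadd* mutants are homozygous for frameshift alleles of *Hoxa9*, *Hoxa10*, *Hoxa11*, *Hoxd9*, *Hoxd10* and *Hoxd11*, each made by a LoxP insertion with a small deletion in the first exon, and no other allele or treatment separates the groups. The sample labels name the *aadd* compartment resting and spell the hypertrophic compartment as a hyperproliferative one. In *aadd*, however, the study captured all zeugopod chondrocytes together, because the mutant zeugopods were small and histologically uniform. Comparisons with *aadd* thus set a whole population against WT zones. The study describes the captured cells as mainly chondrocytes with some perichondrium. The study describes 3 independent sets of compartments, and the labels do not say whether the libraries of a group came from separate embryos, so *P*-values measure the spread between these libraries. With 3 against 3 libraries an exact permutation test cannot give a *P* below 0.1, and limma's moderated test, which pools the spread over genes, was used.

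The depth estimated from the values was 1.89e+06 to 3.24e+06 reads per library. WT hypertrophic replicate 1 stood apart from the other WT hypertrophic libraries. Its root mean square log2 distance to them was 1.11 and 1.04, against 0.613 between those 2 and 0.748 to WT proliferative replicate 1. The summed hypertrophic chondrocyte markers were higher in all 3 than in the other groups (10 genes, 1840, 3528 and 3844 NRPKM, against 108 to 131 in WT resting, 664 to 945 in WT proliferative and 73.0 to 101 in *aadd*). Of these 10 genes, 6 were higher in replicates 2 and 3 than in any WT resting or WT proliferative library, and 5 were higher there than in replicate 1. In replicates 2 and 3 all 10 cartilage markers were lower than in any WT resting or WT proliferative library, and the summed osteoclast markers were 1353 and 1002 NRPKM, against 42.7 in replicate 1. Comparisons that use the WT hypertrophic group are therefore given with and without its replicate 1. Of the 6 mutated Hox genes, *Hoxd9*, *Hoxd10* and *Hoxd11* were higher in every *aadd* library than in any WT resting library (*Hoxd10* 39.6 to 52.1 against 12.2 to 23.3 NRPKM), *Hoxa11* was lower in every *aadd* library (5.17 to 11.1 against 11.3 to 30.5 NRPKM), and *Hoxa9* and *Hoxa10* overlapped. Whether a frameshift allele lowers its transcript was not tested, so these levels do not check the genotype labels.

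*Fgfr1* (mm10 chr8:25518772-25575714, plus strand) was at 53.5, 104 and 79.4 NRPKM in WT resting replicates 1, 2 and 3. It was at 35.3, 26.2 and 37.6 NRPKM in WT proliferative, 50.6, 61.1 and 88.4 in WT hypertrophic, and 64.3, 73.7 and 59.7 in *aadd*. All 3 WT proliferative libraries lay below the other 9, which overlapped among themselves. The order of the means was WT resting (79.0 ± 25.4, SD, n = 3), WT hypertrophic (66.7 ± 19.5), *aadd* (65.9 ± 7.14) and WT proliferative (33.03 ± 6.02), and only the last step was free of overlap.

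*Fgfr2* (chr7:130162451-130266808, minus strand) encodes a receptor known from perichondrium and osteoblast progenitors. Its level was 76.2, 66.2 and 73.8 NRPKM in WT resting, 67.9, 47.7 and 56.5 in WT proliferative, 45.4, 39.0 and 41.3 in WT hypertrophic, and 78.8, 59.9 and 84.3 in *aadd*. The WT hypertrophic libraries were the lowest 3 of the 12, replicate 1 included. The means ran in the order *aadd* (74.3 ± 12.8), WT resting (72.1 ± 5.20), WT proliferative (57.4 ± 10.1) and WT hypertrophic (41.9 ± 3.27), and the first 3 of these overlapped with their neighbours.

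*Fgfr3* (chr5:33721724-33737068, plus strand) was at 58.9, 60.6 and 58.8 NRPKM in WT resting, a narrow range. It measured 78.5, 116 and 82.7 NRPKM in WT proliferative, 63.7, 17.4 and 18.5 in WT hypertrophic, and 48.7, 47.6 and 37.3 in *aadd*. The WT proliferative libraries were above all others, and the *aadd* libraries were below all WT resting and above WT hypertrophic replicates 2 and 3. WT hypertrophic replicate 1 lay just above the WT resting libraries. The means were 92.5 ± 20.7 in WT proliferative, 59.4 ± 1.02 in WT resting, 44.5 ± 6.28 in *aadd* and 33.2 ± 26.4 in WT hypertrophic (SD, n = 3), and *aadd* and WT hypertrophic were not separated.

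*Fgfr4* (chr13:55152818-55168759, plus strand), whose product is best known as the liver receptor of endocrine FGFs, was the lowest of the signalling receptors. Its level was 14.8, 11.3 and 10.1 NRPKM in WT resting, 19.7, 19.0 and 15.9 in WT proliferative, 7.94, 0.875 and 0.824 in WT hypertrophic, and 10.3, 12.4 and 9.39 in *aadd*. WT hypertrophic replicate 1 was below every library of the other groups, and replicates 2 and 3 were lower again, with an estimated 9.4 and 8.2 reads behind the values. *Fgfr3* and *Fgfr4* shared the order of their group means. The sequences of the 250 bases before the RefSeq start of *Fgfr3* (the first of 2 annotated starts, chr5:33721474-33721723, plus strand, build GRCm38.p6) and of *Fgfr4* (chr13:55152568-55152817, plus strand) are given because the lowest and highest libraries were farther apart, as a ratio, for these than for the other 3 receptor genes. Capitals mark CGGAA or its reverse complement TTCCG, the core of many ETS factor sites, since ETS factors act downstream of ERK.
Fgfr3: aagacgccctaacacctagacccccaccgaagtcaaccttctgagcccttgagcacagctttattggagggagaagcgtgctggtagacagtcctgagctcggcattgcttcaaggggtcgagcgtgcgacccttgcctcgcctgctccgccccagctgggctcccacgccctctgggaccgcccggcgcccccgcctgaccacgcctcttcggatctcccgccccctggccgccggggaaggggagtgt
Fgfr4: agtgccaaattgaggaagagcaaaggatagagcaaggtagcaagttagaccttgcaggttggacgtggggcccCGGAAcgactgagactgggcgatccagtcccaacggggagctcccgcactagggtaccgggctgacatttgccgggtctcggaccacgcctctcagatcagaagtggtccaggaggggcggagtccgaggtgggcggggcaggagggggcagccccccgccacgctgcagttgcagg
The *Fgfr3* window held no match and the *Fgfr4* window held 1, at 177 bases before the start, where 25.2% of 32851 RefSeq windows of this length held at least 1. No match means only that these letters are not in this window.

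*Fgfrl1* (chr5:108694229-108706950, plus strand) encodes a receptor that binds FGFs and has no kinase domain. Its level was 83.9, 83.2 and 97.0 NRPKM in WT resting, 74.1, 59.5 and 69.3 in WT proliferative, 49.0, 24.1 and 26.0 in WT hypertrophic, and 95.1, 77.8 and 78.6 in *aadd*. It stepped down from WT resting and *aadd*, which overlapped, to WT proliferative and then WT hypertrophic, with no overlap at the later 2 steps. The group means were 88.0 ± 7.76, 83.8 ± 9.78, 67.6 ± 7.47 and 33.04 ± 13.9 NRPKM in that order (SD, n = 3).

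**Figure D1:**
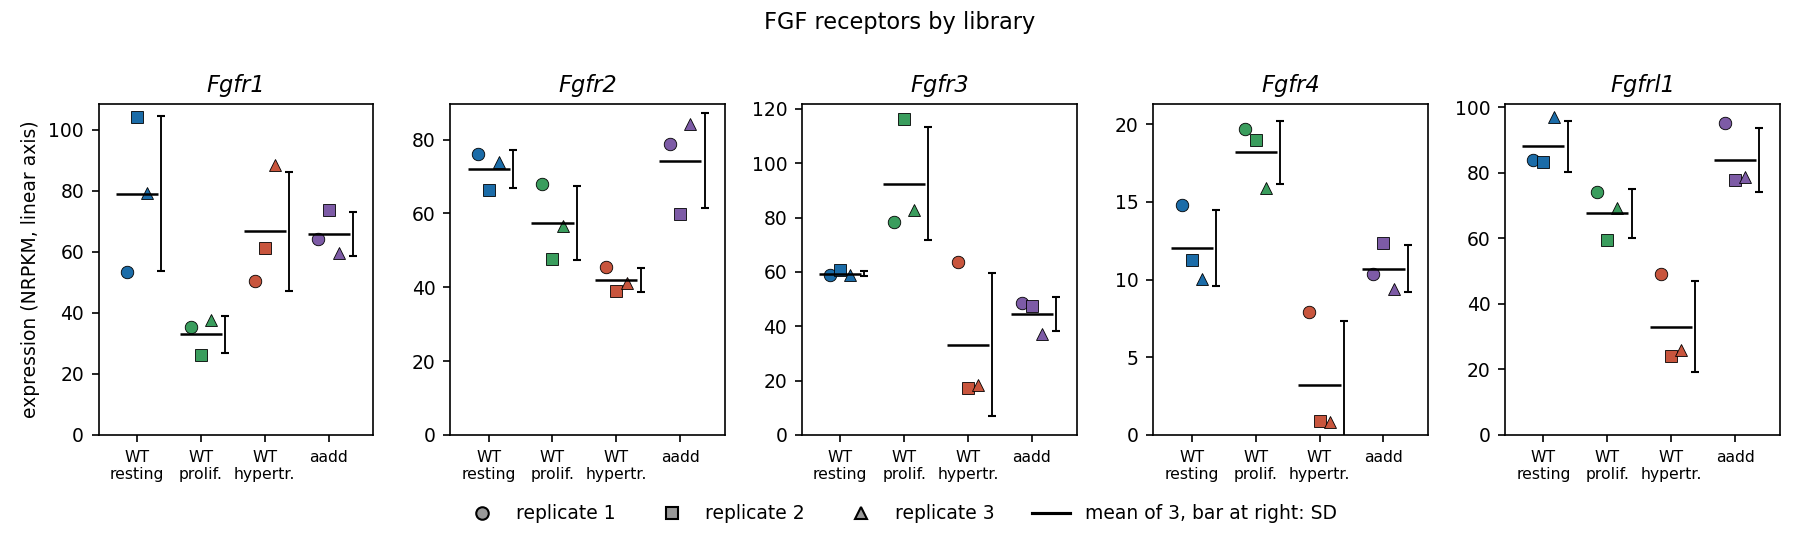
NRPKM (linear axis from 0, each panel with its own scale) of the 5 receptor genes in the 12 libraries. Symbols give the replicate number, horizontal lines the mean of 3 and vertical bars 1 SD to either side (drawn only down to 0). *Fgfr3* and *Fgfr4* were highest in WT proliferative, where *Fgfr1* was lowest, and WT hypertrophic replicate 1 (circle) lay above replicates 2 and 3 for *Fgfr3*, *Fgfr4* and *Fgfrl1*.

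The composition of the 4 signalling receptors was computed as the share of each in their summed NRPKM. *Fgfr3* made up 28.9%, 25.0% and 26.5% in WT resting, 39.0%, 55.6% and 42.9% in WT proliferative, 37.97%, 14.7% and 12.4% in WT hypertrophic, and 24.1%, 24.6% and 19.6% in *aadd*. *Fgfr1* made up 26.3%, 43.0% and 35.8% in WT resting, 17.5%, 12.5% and 19.5% in WT proliferative, 30.2%, 51.6% and 59.3% in WT hypertrophic, and 31.8%, 38.1% and 31.3% in *aadd*. The leading receptor transcript was thus *Fgfr3* in all WT proliferative libraries and *Fgfr1* in WT hypertrophic replicates 2 and 3, while WT hypertrophic replicate 1 was still led by *Fgfr3*. The *Fgfr3* share was lower in every *aadd* library than in any WT resting library. In *aadd* the *Fgfr3* level was 0.757, 0.646 and 0.625 times that of *Fgfr1*, within the WT resting range of 0.581 to 1.10, and in WT proliferative it was 2.20 to 4.43 times that of *Fgfr1*. The summed level of the 4 receptors was 203 to 242 NRPKM in WT resting, 193 to 209 in WT proliferative and 191 to 202 in *aadd*, and 168, 118 and 149 in WT hypertrophic.

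**Figure D2:**
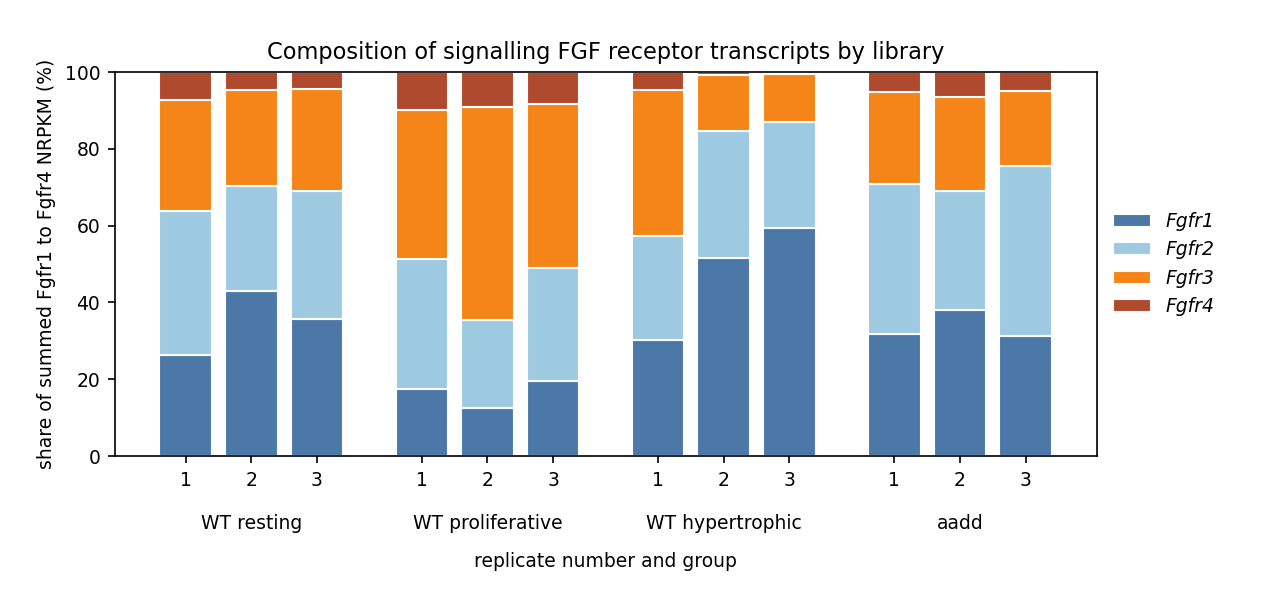
Share (%) of *Fgfr1*, *Fgfr2*, *Fgfr3* and *Fgfr4* in their summed NRPKM, one bar per library from 0 to 100. *Fgfr3* took 39.0% to 55.6% in WT proliferative and 12.4% and 14.7% in WT hypertrophic replicates 3 and 2. Its share in *aadd* (19.6% to 24.6%) was below that in WT resting (25.0% to 28.9%), and the other shares of these groups overlapped.

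*Fgf18* (chr11:33117431-33147400, minus strand) was uneven within groups. It was at 2.33, 6.52 and 17.5 NRPKM in WT resting, 10.9, 0 and 5.50 in WT proliferative, 5.57, 0.285 and 2.17 in WT hypertrophic, and 14.5, 22.1 and 9.64 in *aadd*. All 3 *aadd* libraries were above all WT hypertrophic libraries, and WT resting overlapped with each other group. No more than an estimated 52.8 reads lay behind any value, and the 0 in WT proliferative replicate 2 allows a level of up to 1.44 NRPKM, the value of 3 reads (counting error only). *aadd* replicate 2, with the highest *Fgf18*, also had the highest *aadd* sum of 10 perichondrial fibroblast markers (800 NRPKM, against 433 and 449 in the other *aadd* libraries and 354 to 540 in WT resting), whose part in the *Fgf18* level was not tested.

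The other 21 FGF ligand genes were mostly low, and 3 of them (*Fgf11*, *Fgf12* and *Fgf13*, genes of the intracellular FGFs that do not act through the receptors) passed the filter. *Fgf11* and *Fgf12* were tested because of their *aadd* levels, since they reached 5 NRPKM in 5 and 4 libraries with 3 *aadd* libraries among each, so their differences are given as values only. *Fgf11* was at 6.40, 5.89 and 12.8 NRPKM in *aadd* and 2.48, 5.26 and 2.88 in WT resting, and *Fgf12* at 6.54, 5.35 and 13.03 and at 2.50, 4.95 and 1.88. *Fgf8*, a ligand of the early limb bud ridge, was listed at 0 in all 12 libraries. Among these 21 genes *Fgf7*, a mesenchymal ligand of a splice form of FGFR2, reached the highest single value. It was at 2.45, 20.2 and 21.03 NRPKM in WT hypertrophic, against means of 1.94 in WT resting, 1.75 in WT proliferative and 2.01 in *aadd*, but was at 5 NRPKM or more in 2 libraries and was not tested.

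*Spry4* (chr18:38586265-38601268, minus strand) encodes a Sprouty protein, an inhibitor that acts between the receptor and ERK. Its level was 2.58, 3.30 and 3.20 NRPKM in WT resting, 5.41, 1.91 and 3.89 in WT proliferative, 7.37, 36.5 and 35.5 in WT hypertrophic, and 3.83, 6.29 and 3.27 in *aadd*. WT hypertrophic replicate 1 was just above the highest library of the other groups, and replicates 2 and 3 were far above it, with an estimated 562.2 and 503.9 reads. The group means were 26.5 ± 16.5 in WT hypertrophic, 4.47 ± 1.60 in *aadd*, 3.74 ± 1.76 in WT proliferative and 3.03 ± 0.389 in WT resting (SD, n = 3), and the lower 3 overlapped.

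*Spry1* (chr3:37639947-37644599, plus strand), another Sprouty gene, had the same shape at a lower level. It was at 0.950, 1.503 and 0.941 NRPKM in WT resting, 3.06, 0.839 and 1.06 in WT proliferative, 3.09, 11.2 and 10.5 in WT hypertrophic, and 1.73, 2.37 and 2.24 in *aadd*. WT hypertrophic replicate 1 came next after replicates 2 and 3, by a small margin over WT proliferative replicate 1, and the *aadd* libraries were all above WT resting. Between 4.0 and 20.0 reads were estimated outside the WT hypertrophic group, so small steps such as that from WT resting to *aadd* rest on few reads.

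*Dusp6* (chr10:99263231-99267489, plus strand), the gene of a cytoplasmic phosphatase of ERK, was at 3.51, 6.998 and 1.96 NRPKM in WT resting and 2.87, 2.24 and 3.05 in WT proliferative. It was at 2.91, 32.5 and 24.6 NRPKM in WT hypertrophic and 7.58, 10.4 and 5.11 in *aadd*. WT hypertrophic replicate 1 stood among the WT proliferative libraries and replicates 2 and 3 stood above all others. The *aadd* libraries were above all WT proliferative libraries and overlapped with WT resting through its replicate 2. The group means were 20.0 ± 15.3 in WT hypertrophic, 7.70 ± 2.65 in *aadd*, 4.15 ± 2.58 in WT resting and 2.72 ± 0.423 in WT proliferative (SD, n = 3), with overlap at every step.

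*Spry2* (chr14:105891947-105896819, minus strand) did not follow the other Sprouty genes. It measured 5.96, 10.8 and 9.98 NRPKM in WT resting, 6.95, 9.02 and 9.64 in WT proliferative, 10.6, 6.50 and 9.40 in WT hypertrophic, and 11.7, 21.1 and 21.1 in *aadd*. The *aadd* libraries were above all 9 WT libraries, with *aadd* replicate 1 close to the highest of them. The WT compartment means of 8.90 ± 2.58, 8.54 ± 1.41 and 8.84 ± 2.12 NRPKM differed by less than their SD, and the *aadd* mean was 17.97 ± 5.45 (n = 3).

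**Figure D3:**
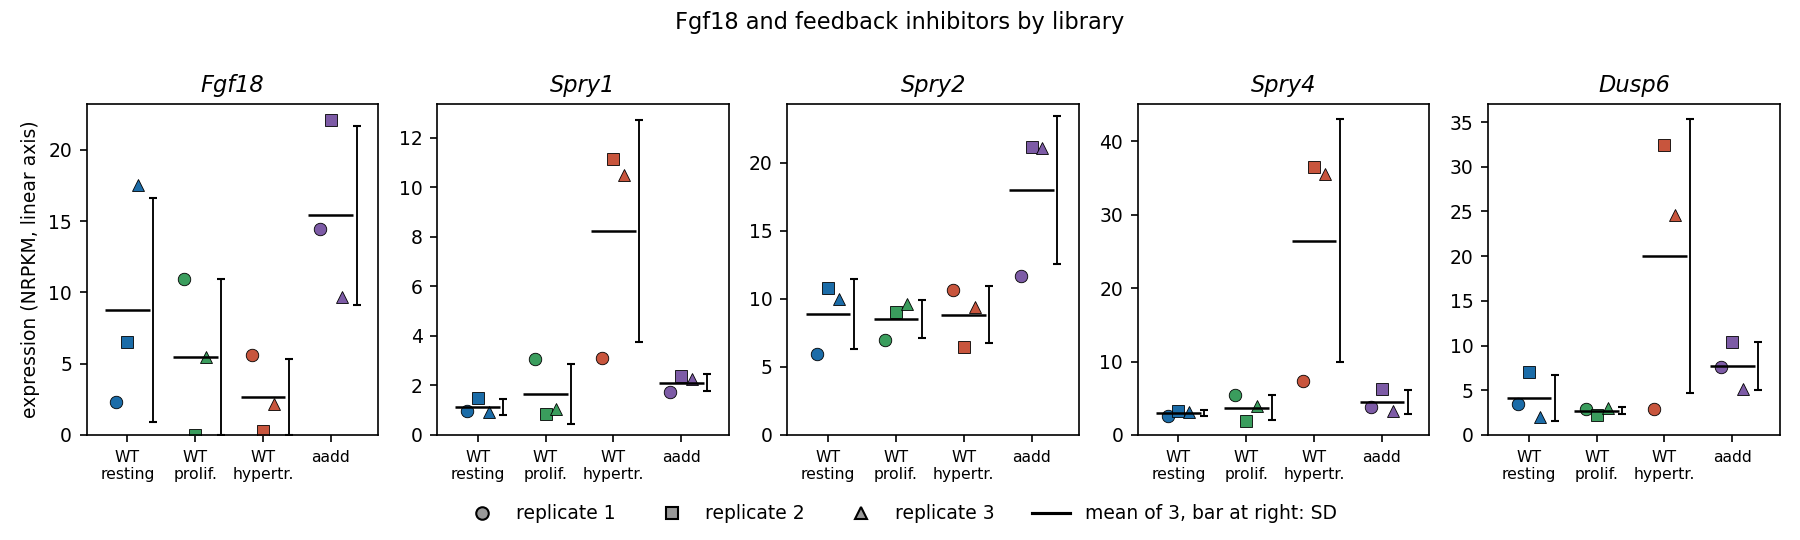
NRPKM (linear axis from 0, each panel with its own scale) of *Fgf18* and the 4 feedback inhibitor genes in the 12 libraries, with symbols for replicates, lines for the mean of 3 and bars of 1 SD drawn only down to 0. *Spry1*, *Spry4* and *Dusp6* were highest in WT hypertrophic replicates 2 and 3, and *Spry2* was highest in *aadd*.

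RefSeq windows before the start were given for 8 of the 10 genes, in 9 windows. Those of *Dusp6* (chr10:99262981-99263230, plus strand, GRCm38.p6) and *Spry1* (chr3:37639697-37639946, plus strand) are given because these genes were high in the same libraries and differed in the ETS core, marked again by capitals.
Dusp6: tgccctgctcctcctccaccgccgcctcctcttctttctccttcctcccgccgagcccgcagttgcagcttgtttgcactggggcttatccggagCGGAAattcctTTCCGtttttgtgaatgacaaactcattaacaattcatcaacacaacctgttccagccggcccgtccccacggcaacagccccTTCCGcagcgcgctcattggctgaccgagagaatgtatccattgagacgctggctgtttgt
Spry1: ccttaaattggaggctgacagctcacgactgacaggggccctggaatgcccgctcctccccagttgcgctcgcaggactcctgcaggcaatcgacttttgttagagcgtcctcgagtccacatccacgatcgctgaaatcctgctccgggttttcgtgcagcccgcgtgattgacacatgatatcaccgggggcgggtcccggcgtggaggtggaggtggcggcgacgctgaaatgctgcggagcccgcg
*Dusp6* held 3 matches, at 155, 144 and 61 bases before the start, and 2.12% of the 32851 windows held 3 or more. *Fgfrl1* held 1, at 47 bases, and none was found in the windows of *Fgfr2*, *Fgf18*, *Spry1*, *Spry2* or the other start of *Fgfr3*. A match is a description of the letters and was not tested as a binding site.

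Between WT proliferative and WT resting chondrocytes, *Fgfr1* was called lower and no gene of the group was called higher. *Fgfr1* was 2.33-fold lower in WT proliferative (log2 FC -1.22, SE 0.29, 95% interval -1.91 to -0.53, limma adjusted *P* = 0.14), and all 3 libraries were below all WT resting libraries. A gene is counted as changed, or called, at an unadjusted *P* of up to 0.05 with an FC of at least 2. By this rule 1 of the 9 genes tested changed, a count near the 5.53% of all genes tested (2.97% lower and 2.56% higher). *Fgfr3* (log2 FC 0.62, 95% interval 0.14 to 1.09) and *Fgfr4* (0.61, SE 0.20) were higher in all libraries and met the *P* limit, but stayed under an FC of 2. *Fgfrl1* was lower in all libraries without passing either limit (log2 FC -0.38, SE 0.17), and the interval of *Fgf18*, from -6.11 to 2.43, shows how little its spread allows. Libraries did not overlap for 4 of the 9 genes, against 24% of all genes. None passed after Benjamini-Hochberg adjustment over all genes in limma against 0.622% of all genes (3 of 9 had an unadjusted *P* of up to 0.05, against 17.1%, and the adjusted *P* of *Fgfr1* ran from 0.07 to 0.35 over the alternative settings). With the replicate number as a block *Fgfr1* kept its call (limma adjusted *P* = 0.17), while 9 genes of all passed adjustment in place of 68. The hypertrophic chondrocyte marker sum was higher in WT proliferative (664 to 945 NRPKM) than in WT resting (108 to 131), and its part in the *Fgfr1* level was not tested. The *Fgfr1* call was lost without WT resting replicate 2, where log2 FC was -0.995 and the FC thus just under 2.

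From the WT proliferative to the WT hypertrophic libraries, *Fgfr3*, *Fgfr4* and *Fgfrl1* fell and the feedback gene *Spry4* rose. *Dusp6* was called higher too, but its libraries overlapped. WT hypertrophic replicates 2 and 3 (32.5 and 24.6 NRPKM) lay above WT proliferative (2.24 to 3.05), and replicate 1 (2.91) did not. Log2 FC was -1.73 for *Fgfr3* (SE 0.53), -3.24 for *Fgfr4* (SE 0.84), -1.10 for *Fgfrl1* (SE 0.31) and 2.26 for *Dusp6* (SE 0.89). Their limma adjusted *P* lay between 0.16 (*Fgfr4*) and 0.25 (*Dusp6*). *Fgfr1* missed the limit by its FC of 1.99 (log2 FC 0.99, SE 0.27). *Spry4* passed the filter on low values only through its WT hypertrophic libraries (2 libraries elsewhere reached 5 NRPKM). It is therefore left out of the counts of every comparison with that group, except in the closing section on processing. Its values in those comparisons come from the fit without the filter. In the present comparison it met the limits in that fit (log2 FC 2.60, SE 0.76, limma adjusted *P* = 0.33). Of the other 8 genes 4 were called, against 9.67% of all genes (4.34% lower and 5.32% higher), and 5 of 8 did not overlap, against 24.2%. No gene of all 10936 passed after limma's adjustment, while 2115 had an unadjusted *P* of up to 0.05, 19.3% of all, and 5 of the 8 were among them.

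Without WT hypertrophic replicate 1 these differences were larger, with adjusted *P* under 0.05 in limma for *Fgfr3*, *Fgfr4*, *Fgfrl1*, *Dusp6* and *Fgfr1*. *Fgfr3* was then 5.04-fold lower (adjusted *P* = 0.0073), *Fgfr4* 19.2-fold lower (0.0018) and *Fgfrl1* 2.68-fold lower (0.011) in WT hypertrophic than in WT proliferative. *Dusp6* was 10.1-fold higher (adjusted *P* = 0.0041) and *Fgfr1* 2.25-fold higher (0.04), and *Spry4* was 10.2-fold higher, given as a value only. So 5 of the 8 genes other than *Spry4* passed both rules, against 18.4% of all genes by the unadjusted rule and 17.4% after adjustment. The WT hypertrophic group then holds only replicates 2 and 3. Leaving out the library that stood apart narrows the spread that *P* measures, here and in the later fits without it. *Spry1*, which entered only without the filter, had a log2 FC of 2.26 with all libraries (limma adjusted *P* = 0.35 in that fit). *Fgfr4* passed with any single library left out. *Dusp6* lost the call in the fit without the filter on low values, with log2 FC 2.26 as before, and likewise when any library other than WT hypertrophic replicate 1 was left out. Leaving out WT proliferative replicate 1, 2 or 3 (log2 FC 2.31, 2.14 and 2.35) or WT hypertrophic replicate 2 or 3 (1.62 and 1.82) took its *P* above the limit. *Fgfr3* lost the call without WT proliferative replicate 2 (log2 FC -1.55) or WT hypertrophic replicate 2 (-1.40) or 3 (-1.45), and *Fgfrl1* without WT hypertrophic replicate 2 (log2 FC -0.91) or 3 (-0.97).

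Markers of other cell types moved with these genes. The 10 endothelial markers summed to 21.7, 304 and 212 NRPKM in WT hypertrophic replicates 1, 2 and 3, against 5.005 to 14.2 in the WT resting and WT proliferative libraries, and all 10 were higher in replicates 2 and 3 than in any of those libraries. The osteoclast list behaved alike (42.7, 1353 and 1002 NRPKM against 13.8 to 27.6, 10 of 10 genes higher). The macrophage sum was 30.3, 447 and 366 NRPKM against 14.0 to 36.7 (7 of 10 genes higher), and the osteoblast sum 1523, 2346 and 3548 against 526 to 1681 (10 of 10 genes higher, with *Bglap2* at 0 outside WT hypertrophic). The cartilage sum was 3006, 677 and 965 NRPKM against 2596 to 4955, and all 10 of its genes were lower in replicates 2 and 3. The sum of 8 erythroid markers was 172, 320 and 339 NRPKM against 39.9 to 176 (6 of 8 genes higher in replicates 2 and 3). Perichondrial fibroblast markers did not follow, at 492, 488 and 642 NRPKM against 354 to 751. The part of these cells in the levels of *Fgfr3*, *Fgfr4*, *Fgfrl1*, *Spry1*, *Spry4* and *Dusp6* was not tested, and in bulk libraries fewer cells of a type and less RNA per cell cannot be told apart.

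**Figure D4:**
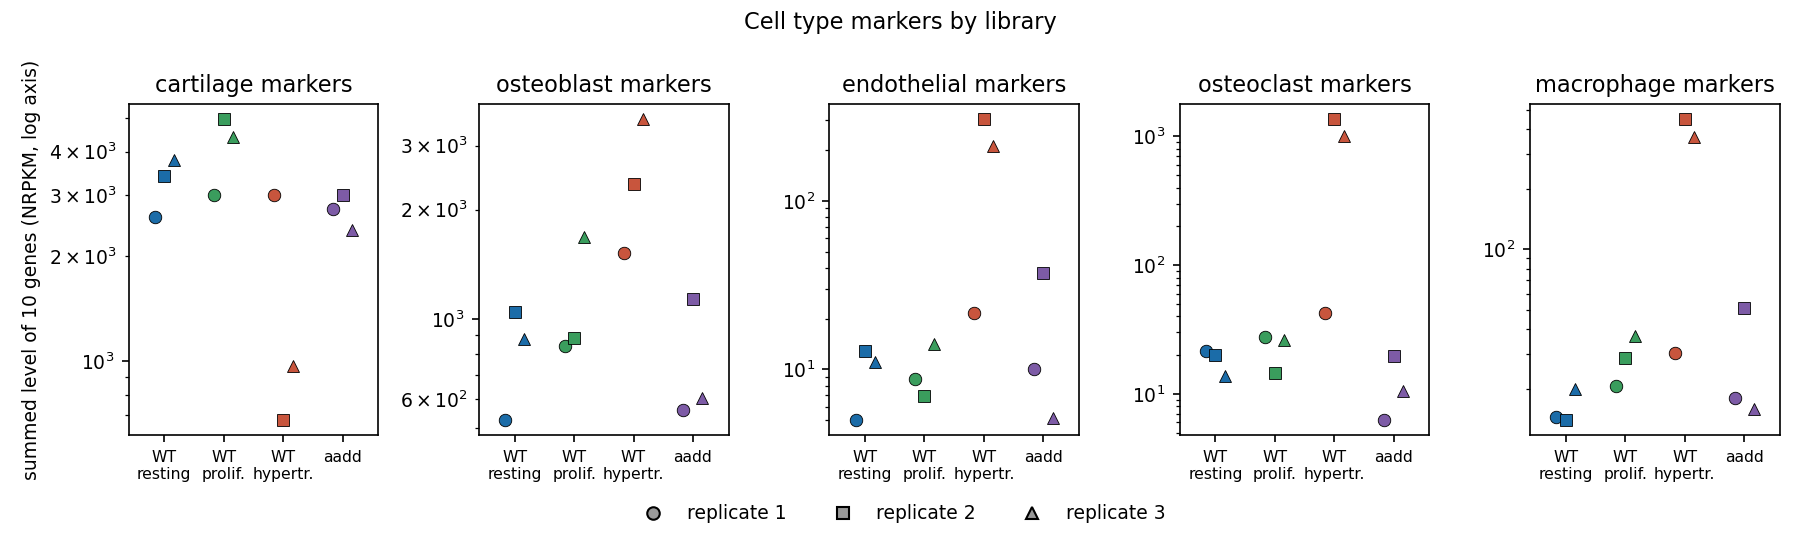
Summed NRPKM (log axis) of 10 marker genes each for cartilage, osteoblasts, endothelium, osteoclasts and macrophages in the 12 libraries, with symbols for replicates. In WT hypertrophic replicates 2 and 3 the cartilage sum was lowest, at 677 and 965, and each of the other sums was higher there than in the other 10 libraries.

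Between WT hypertrophic and WT resting chondrocytes, *Fgfr4* and *Fgfrl1* fell and *Spry4* rose. Log2 FC was -2.63 for *Fgfr4* (SE 0.84, limma adjusted *P* = 0.11), -1.48 for *Fgfrl1* (SE 0.30, 0.042) and, in the fit without the filter, 2.78 for *Spry4* (SE 0.67, 0.13). Of the 8 genes other than *Spry4* 2 were called, against 13% of all genes (7.2% lower and 5.84% higher), and libraries were apart for 3 of 8, against 32%. After limma's adjustment *Fgfrl1* and *Fgfr2* (log2 FC -0.78, 1.72-fold lower, adjusted *P* = 0.043, lower in 3 of 3 libraries) passed, which is 2 of 8 against 6.36% of all genes. Over the alternative settings the adjusted *P* of *Fgfrl1* ran from 0.0021 to 0.16 and that of *Fgfr2* from 0.018 to 0.17. *Fgfr1*, the gene that fell from WT resting to WT proliferative, had a WT hypertrophic to resting log2 FC of -0.23 (95% interval -1.01 to 0.55), and of -0.052 (-0.89 to 0.79) without WT hypertrophic replicate 1. The *Fgfr4* call was lost without WT resting replicate 1 (log2 FC -2.47) or WT hypertrophic replicate 2 (-2.14) or 3 (-2.10).

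Without WT hypertrophic replicate 1, the calls against WT resting also took in *Fgfr3* (3.29-fold lower, limma adjusted *P* = 0.0018), *Dusp6* (7.56-fold higher, 0.016) and *Fgf18* (7.04-fold lower, 0.11). *Fgfr4* was then 12.62-fold lower, *Fgfrl1* 3.50-fold lower and *Spry4* 11.6-fold higher. By the unadjusted rule 5 of the 8 genes other than *Spry4* passed, against 19.2% of all genes, and 5 of 8 passed after adjustment, against 24.2%. For *Fgf18* the remaining WT hypertrophic values of 0.285 and 2.17 NRPKM stand on an estimated 1.0 and 7.0 reads.

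In *aadd* against WT resting chondrocytes, *Spry2* was called higher and no receptor gene passed both limits. *Spry2* was 1.999-fold higher in *aadd* (log2 FC 0.999, SE 0.33, 95% interval 0.23 to 1.77), with all *aadd* libraries above all WT resting libraries. An FC of at least 1.5 was used here. By this rule 1 of 9 genes passed, a count near the 6.56% of all genes (3.78% higher and 2.78% lower). The *P* limit alone was met by 2 of 9, against 9.58%. Libraries were apart for *Spry2* and *Fgfr3*, 2 of 9 against 15.4%, and none of the 9 passed after adjustment against 0.119% of all genes (*Spry2* adjusted *P* = 0.38 in limma, from 0.22 to 0.85 over the alternatives). The *Spry2* call was lost without WT resting replicate 1 (log2 FC 0.74), *aadd* replicate 2 (0.86) or *aadd* replicate 3 (0.86). The erythroid marker sum was 88.7 to 141 NRPKM in *aadd* against 45.7 to 85.95 in WT resting (1 of 8 genes higher in all *aadd* libraries), and the hypertrophic chondrocyte sum 73.0 to 101 against 108 to 131 (3 of 10 genes lower). Of 10 skeletal muscle markers 3 were higher in all *aadd* libraries than in all WT resting ones. So was 1 of 10 markers each of perichondrial fibroblasts, osteoblasts and macrophages, while 2 of 10 osteoclast markers were lower in all *aadd* libraries. The part of these markers in the *Spry2* level was not tested.

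*Fgfr3* was lower in every *aadd* library than in any WT resting library, with a log2 FC of -0.43 (95% interval -0.82 to -0.03, limma adjusted *P* = 0.49), an FC of 1.34 that is under the limit. The intervals of the other receptors spanned 0, with log2 FC of -0.22 for *Fgfr1* (-0.84 to 0.41), 0.03 for *Fgfr2* (-0.41 to 0.47), -0.16 for *Fgfr4* (-0.65 to 0.33) and -0.07 for *Fgfrl1* (-0.47 to 0.32). They leave room for a level of *Fgfr1* or *Fgfr4* that is 1.5-fold lower. *Dusp6* had a log2 FC of 0.998 (-0.12 to 2.12) and passed without WT resting replicate 2 (1.46), the library in which its level of 6.998 NRPKM overlapped with *aadd*. *Fgf18* had a log2 FC of 1.16 (-0.49 to 2.80) and passed without WT resting replicate 3 (1.87). *Spry4* had a log2 FC of 0.50 (SE 0.27) and passed without *aadd* replicate 3 (0.69). In the fit without the filter *Spry1* was 1.82-fold higher in *aadd* (log2 FC 0.86, limma adjusted *P* = 0.69), on an estimated 6.0 to 9.0 reads in WT resting and 12 to 16 in *aadd*.

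**Figure D5:**
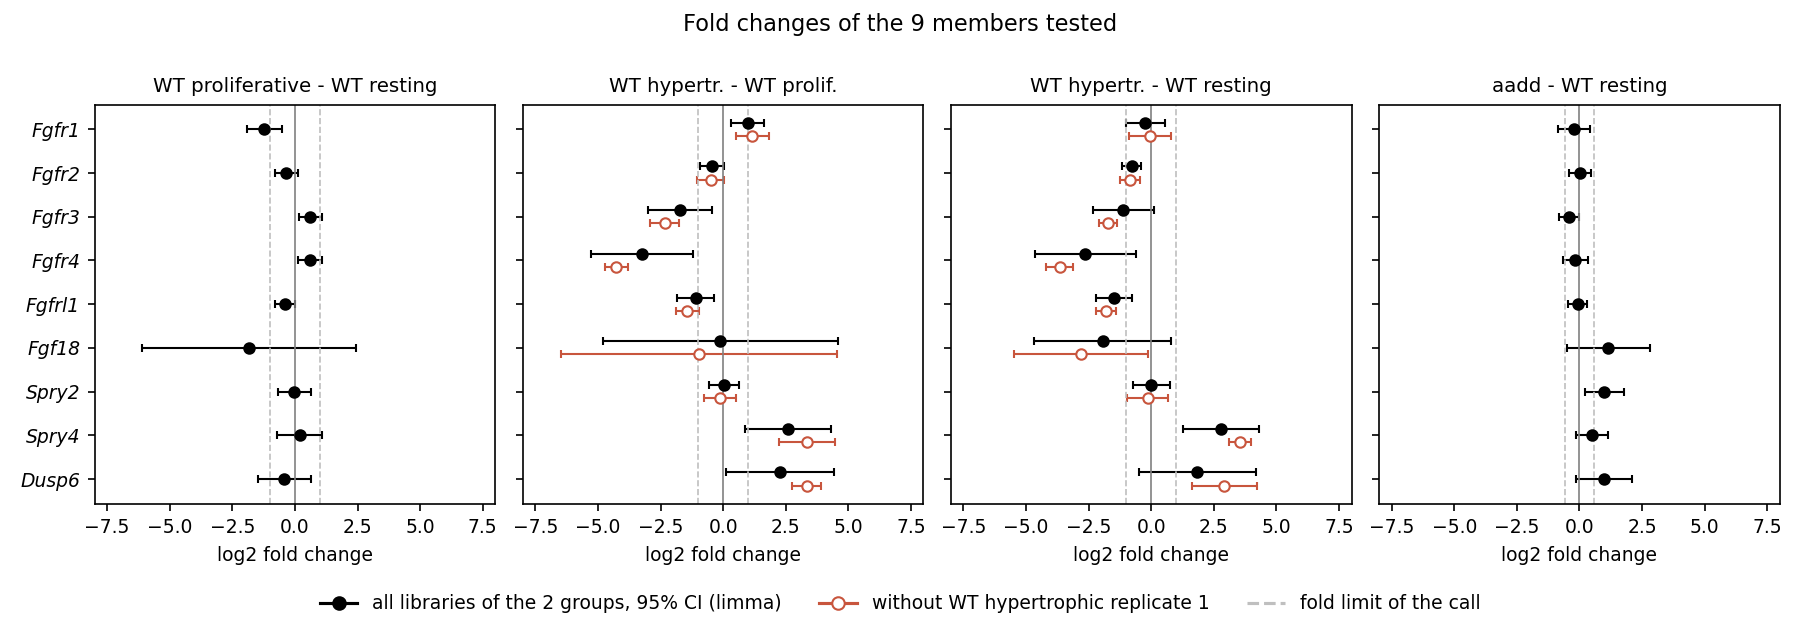
Log2 fold change of the 9 genes tested with limma's 95% interval in 4 comparisons, as group before the minus sign over group after it, all from the filtered table, so that *Spry4* is a value only. Filled points use all 6 libraries, open points leave out WT hypertrophic replicate 1, and dashed lines mark the fold limit. For WT hypertrophic over WT proliferative the open points of *Fgfr4* (-4.26) and *Spry4* (3.35) lie farther from 0 than the filled ones.

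Set against WT proliferative chondrocytes, *aadd* had more *Fgfr1*, *Spry2* and *Dusp6* and less *Fgfr3*. Log2 FC was 1.01 for *Fgfr1* (SE 0.21), 1.03 for *Spry2* (SE 0.28), 1.42 for *Dusp6* (SE 0.29) and -1.04 for *Fgfr3* (SE 0.22), and the libraries of each were apart. At an FC of 2 this is 4 of 9 genes, against 8.02% of all genes (4.92% higher and 3.1% lower), and 6 of 9 were apart, against 25.6%. *Fgfr4* was lower in all *aadd* libraries with an FC of 1.70 (limma adjusted *P* = 0.086). No member passed adjustment in limma, against 3% of all genes (5 had an unadjusted *P* of up to 0.05, against 19.2%, and the lowest adjusted *P* was 0.055, for *Dusp6* and *Fgfr1*, which ran from 0.042 to 0.36 and from 0.037 to 0.22 over the alternatives). The FC of *Fgfr1*, *Fgfr3* and *Spry2* lay near the limit of 2, so that the calls were lost under small changes. *Dusp6* lost its call when all 12 libraries entered 1 fit, where the 95% interval of its log2 FC was -0.29 to 3.13. *Fgfr1* fell short without WT proliferative replicate 2 (log2 FC 0.85) or *aadd* replicate 2 (0.92), *Fgfr3* without WT proliferative replicate 2 (-0.86) or *aadd* replicate 3 (-0.92), and *Spry2* without WT proliferative replicate 1 (0.89), *aadd* replicate 2 (0.88) or *aadd* replicate 3 (0.89). *Fgf18* had a log2 FC of 2.998 (95% interval -0.92 to 6.91) and passed without WT proliferative replicate 1 (4.29), a value that rests on the 0 of WT proliferative replicate 2. The hypertrophic chondrocyte marker sum was 73.0 to 101 NRPKM in *aadd* and 664 to 945 in WT proliferative. The cartilage sum was also lower in *aadd*, at 2380 to 2994 NRPKM against 3001 to 4955 in WT proliferative. The part of these markers in the levels of *Fgfr1*, *Fgfr3*, *Spry2* and *Dusp6* was not tested.

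Against WT hypertrophic chondrocytes, *aadd* had more *Fgfr4*, *Fgfrl1* and *Fgf18* and less *Spry4*. Log2 FC was 2.47 for *Fgfr4* (SE 0.82), 1.41 for *Fgfrl1* (SE 0.30), 3.10 for *Fgf18* (SE 0.94) and, in the fit without the filter, -2.28 for *Spry4* (SE 0.71, limma adjusted *P* = 0.21). Of the 8 genes other than *Spry4* the 3 called stand against 13.3% of all genes (7.39% higher and 5.93% lower), the 5 with an unadjusted *P* of up to 0.05 against 25%, the 5 whose libraries were apart against 30.9%, and the 1 that passed adjustment, *Fgfrl1* with a limma adjusted *P* of 0.043 (0.0021 to 0.16 over the alternatives), against 7.64%. Without WT hypertrophic replicate 1, *Fgfr4* was 11.3-fold, *Fgfrl1* 3.32-fold and *Fgf18* 15.7-fold higher in *aadd*, and *Spry4* was 8.22-fold lower, given as a value only. *Fgfr3* (2.45-fold higher in *aadd*, limma adjusted *P* = 0.007), *Dusp6* (3.79-fold lower, 0.01) and *Spry2* (2.20-fold higher, 0.055) then passed the unadjusted rule too. That made 6 of the 8 genes other than *Spry4* against 19.9% of all genes, and 6 of 8 passed adjustment against 24.8%. *Fgfr4* lost the call without WT hypertrophic replicate 2 (log2 FC 1.98) or 3 (1.94) or without *aadd* replicate 1 (2.49), 2 (2.36) or 3 (2.56), and *Fgf18* without *aadd* replicate 2 (2.81) or with all 12 libraries in 1 fit (95% interval -0.40 to 6.60). *Fgfrl1* kept it with any single library left out. The hypertrophic chondrocyte marker sum was 73.0 to 101 NRPKM in *aadd* against 1840 to 3844 in WT hypertrophic, and the osteoclast sum 6.27 to 19.7 against 42.7 to 1353. The cartilage sum was 2380 to 2994 NRPKM in *aadd* against 3006, 677 and 965 in WT hypertrophic replicates 1, 2 and 3. The osteoblast sum was 560 to 1137 NRPKM in *aadd* against 1523 to 3548 in WT hypertrophic, and the erythroid sum 88.7 to 141 against 172 to 339. The part of these markers in the levels of *Fgfr4*, *Fgfrl1*, *Fgf18* and *Spry4* was not tested. The comparisons of *aadd* with the 3 WT compartments share the *aadd* libraries, so they are not independent of each other.

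Over the 4 groups together, limma's moderated F test gave an adjusted *P* under 0.05 for *Fgfrl1* (0.009), *Fgfr4* (0.027), *Fgfr2* (0.034) and *Fgfr1* (0.042). That is 4 of the 8 genes other than *Spry4*, against 13.8% of all genes. In the fit without the filter only *Fgfrl1* kept an adjusted *P* under 0.05 (0.040), with *Spry4* at 0.0695, *Fgfr4* at 0.075, *Fgfr1* at 0.125 and *Fgfr2* at 0.131, and the replicate block took *Fgfr1* to 0.057. *Fgfr3* (0.065) and *Spry2* (0.086) lay above the limit, as did *Dusp6* (0.17) and *Fgf18* (0.36). Without WT hypertrophic replicate 1 *Fgfr3* (adjusted *P* = 0.00024) and *Dusp6* (0.0027) passed as well, so that 6 of these 8 did, against 28.1% of all genes. Leaving out WT hypertrophic replicate 3 left 0 of 8. *Fgfrl1* alone was left without WT hypertrophic replicate 2, WT resting replicate 2, WT proliferative replicate 3 or *aadd* replicate 1 or 3. *Fgfrl1* and *Fgfr4* were left without WT resting replicate 3, and *Fgfrl1* and *Fgfr2* without WT proliferative replicate 2.

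Levels of several members varied together over the 12 libraries, which share depth, compartment and, in WT hypertrophic replicates 2 and 3, the markers of other cells. Pearson's *r* of log2(NRPKM + 0.1) was highest between *Spry1* and *Spry4* (0.959), *Fgfr3* and *Fgfr4* (0.922), *Fgfr2* and *Fgfrl1* (0.889) and *Fgfr4* and *Fgfrl1* (0.875). It was lowest between *Fgfr4* and *Spry4* (-0.926) and between *Fgfr3* and *Dusp6* (-0.894). Over the 10 libraries other than WT hypertrophic replicates 2 and 3 the first 3 of these remained, at 0.837, 0.707 and 0.869, while *Fgfr4* and *Fgfrl1* came to -0.061, *Fgfr4* and *Spry4* to -0.35 and *Fgfr3* and *Dusp6* to -0.63. *Fgfr1* and *Fgfr3* ran opposite in both sets, at -0.597 over 12 and -0.725 over 10 libraries.

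The genes most like a member were sought among all genes tested by the same measure over the 12 libraries. For *Fgfr3* they were *Chst11* (0.982), a chondroitin sulfotransferase, *Slc2a1* (0.981), the glucose transporter GLUT1, and *Slc26a2* (0.976), the sulfate transporter of cartilage. For *Fgfrl1* they were *Npr2* (0.987), the receptor of C-type natriuretic peptide, *Creb3l2* (0.986) and the matrilin gene *Matn4* (0.985). All 6 held at 0.91 or more over the 10 libraries without WT hypertrophic replicates 2 and 3. For *Fgfr4* they were *Dact1* (0.978), *Sipa1l1* (0.977) and *Gfpt2* (0.977), which came to 0.702, 0.873 and 0.681 over the 10 libraries. *Fgfr1* was most like *Smad3* (0.940), *Agrn* (0.925) and *Emilin3* (0.924), and *Fgfr2* most like *Zcchc3* (0.959), *Usp54* (0.946) and *Jph1* (0.945). Among the others, *Spry4* was nearest to *Sox4* (0.974, and 0.862 over 10 libraries), *Dusp6* to *Svil* (0.971, and 0.942), *Fgf18* to *Glis2* (0.921, and 0.895) and *Spry2* to *Chrnb1* (0.894, and 0.904).

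Genes that help ligands reach the receptors, the heparan sulfate proteoglycans, their enzymes and other binding proteins, were a list of 26 with 21 tested. Between WT proliferative and WT resting 0 rose and 1 (*Sulf1*) fell, against 5.53% of all genes called. From WT proliferative to WT hypertrophic 3 rose (*Gpc1*, *Gpc2* and *Sdc2*) and 3 fell (*Flrt1*, *Gpc3* and *Gpc6*), against 9.67% of all genes, and without WT hypertrophic replicate 1 the counts were 7 and 5, against 18.4%. Between WT hypertrophic and WT resting 3 rose (*Gpc1*, *Gpc4* and *Sdc2*) and 4 fell (*Flrt1*, *Gpc6*, *Hs6st2* and *Sulf2*), against 13%, and without that library 6 and 5, against 19.2%. In WT hypertrophic replicates 2 and 3 the endothelial, osteoclast, macrophage and osteoblast marker sums were also higher and the cartilage sum lower. The part of these cells in the levels of this list, and of the transducers and feedback genes below, was not tested. In *aadd* against WT resting 3 rose (*Flrt2*, *Sdc2* and *Sulf1*) and 0 fell, against 6.56%. There 0 of the 21 passed limma's adjustment, against 0.119% of all genes. The glypican gene *Gpc1* was at 11.6 to 14.6 NRPKM in WT resting, 18.6 to 30.2 in WT proliferative, 36.9, 74.4 and 67.2 in WT hypertrophic and 11.0 to 16.5 in *aadd* (limma F test adjusted *P* = 0.0026). Another glypican gene, *Gpc6*, went the other way, at 77.4 to 91.3, 46.9 to 67.3, 38.3, 13.9 and 14.6, and 87.4 to 115 NRPKM in the same order (adjusted *P* = 0.0057). *Sulf2*, which removes 6-O-sulfates from heparan sulfate, was at 124 to 156, 73.2 to 99.8, 80.6, 39.8 and 44.8, and 157 to 177 NRPKM (adjusted *P* = 0.0058).

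*Flrt1*, whose product binds FGF receptors, was at 7.33 to 9.34 NRPKM in WT resting and 4.16, 0.961 and 1.15 in WT hypertrophic (limma F test adjusted *P* = 0.018). The syndecan gene *Sdc2* was at 25.2 to 31.6 NRPKM in WT resting, 37.0 to 55.7 in WT proliferative, 53.5, 136 and 137 in WT hypertrophic and 41.7 to 50.6 in *aadd* (adjusted *P* = 0.023). Every library outside WT resting lay above all WT resting libraries. In all, 7 of the 21 genes tested had an adjusted *P* under 0.05 over the 4 groups, against 13.8% of all genes, and without WT hypertrophic replicate 1 it was 13, against 28.1%. The 5 genes described kept an adjusted *P* of 0.00035 or less there.

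Of 22 intracellular transducers 20 were tested, and 2 had an adjusted *P* under 0.05 in limma's F test over the 4 groups, the adaptor gene *Grb2* (0.020) and *Pik3r1* (0.026), the gene of the regulatory subunit of PI3 kinase. This count of 2 in 20 is near the 13.8% of all genes, and without WT hypertrophic replicate 1 it was 5, against 28.1%. *Pik3r1* was at 7.83 to 15.97 NRPKM in WT resting, 10.5 to 16.6 in WT proliferative, 20.1, 30.3 and 29.3 in WT hypertrophic and 20.8 to 29.9 in *aadd*. It rose in WT hypertrophic against both other compartments, with and without replicate 1, and in *aadd* against WT resting (log2 FC 1.15) and WT proliferative. *Grb2* was at 6.35 to 8.97 NRPKM in WT resting and 13.1, 20.5 and 18.4 in WT hypertrophic. *Grb2* rose against WT resting with and without WT hypertrophic replicate 1 (log2 FC 1.11 and 1.30), and against WT proliferative only without it (1.08). Between WT proliferative and WT resting 0 of the 20 changed, a count near the 5.53% of all genes. In *aadd* against WT resting 0 of the 20 passed limma's adjustment, against 0.119% of all genes.

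Of 18 other feedback inhibitors and ERK-responsive transcription factors, 12 were tested. In *aadd* against WT resting 2 rose and 0 fell, *Dusp1* (log2 FC 1.32) and *Etv1* (0.68), against 6.56% of all genes. After limma's adjustment 0 of the 12 passed in this comparison, against 0.119% of all genes. In *aadd* against WT proliferative 3 rose (*Dusp1*, *Etv1* and *Etv5*) and 1 fell (*Dusp9*), against 8.02%. The ETS factor gene *Etv1*, a transcriptional responder to FGF signals, was at 12.8, 14.9 and 14.8 NRPKM in WT resting, 10.7, 6.07 and 11.7 in WT proliferative, 6.56, 7.54 and 7.37 in WT hypertrophic and 18.8, 26.4 and 23.7 in *aadd*. Every *aadd* library was above every WT library, and the limma F test gave an adjusted *P* of 0.0057 (0.0056 without WT hypertrophic replicate 1). *Dusp1*, a nuclear phosphatase gene induced by stress and by growth factors, was at 10.8, 10.1 and 22.5 NRPKM in WT resting. It was at 10.1, 5.65 and 5.62 in WT proliferative, 12.1, 27.5 and 23.7 in WT hypertrophic and 30.7, 46.4 and 27.1 in *aadd*. The limma F test over the 4 groups gave it an adjusted *P* of 0.018, and of 0.005 without WT hypertrophic replicate 1. From WT proliferative to WT hypertrophic *Dusp1* and the early response gene *Egr1* rose and 0 fell, against 9.67% of all genes, and without WT hypertrophic replicate 1 *Fos* rose too, against 18.4%. Against WT resting 0 of the 12 were called in WT hypertrophic, with its replicate 1 (13% of all genes) or without it (19.2%). With all libraries 1 of the 12 had an adjusted *P* under 0.05 in limma, at an FC under the limit, against 6.36% of all genes.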

How the data were processed

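RNA from 12 LCM samples was amplified and sequenced by the authors, who aligned reads with TopHat to mm10 (submitters' processing notes), removed low quality, duplicate and multiply aligned reads and deposited normalised RPKM (NRPKM) made in GeneSpring. How libraries were normalised to each other and whether strand was used is not given in the sources used here. Groups came from the sample labels. Depth was estimated from the steps of low values.

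Comparisons used limma 3.58.1 (R 4.3.3) on log2(NRPKM + 0.1) with 3 against 3 libraries, over rows of at least 5 NRPKM in at least 3 of 12 libraries, with Benjamini-Hochberg adjustment over all 10936 of them. Calls used limma's unadjusted *P* of up to 0.05 with an FC of at least 2, or 1.5 for *aadd* against WT resting. The study gives these numbers for some of the comparisons, without saying whether *P* was adjusted, and 2 was applied to the rest. The *P* values printed are adjusted. The model was tested on simulated data. Values were handled in Python 3.11.15 with numpy 2.4.6 and pandas 2.3.3, and plotted with matplotlib 3.10.9.

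The 10 genes and the lists were chosen with earlier results of these data known. The text names these genes, in each pathway list up to 5 with the lowest adjusted *P* of the F test, and for each gene its 3 nearest by correlation. A few others (*Fgf7*, *Fgf8*, genes of short lists) were named after their values were seen. Deviations from the group means of WT resting and WT proliferative libraries with the same number correlated (*r* of 0.281, 0.179 and 0.198), a sign of pairing from the data alone. In the other group pairs *r* was lower (0.0657, 0.0628 and 0.111 between WT resting and WT hypertrophic) or of mixed sign. The values reported are from the fit without a replicate block, and the block was an alternative. Alternatives were a pseudocount of 1, no filter, median of ratios and quantile scaling, 1 fit of all libraries, a replicate block and leaving out each library.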

Additional observations from a re-analysis of the deposited data

How the results depend on the processing

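No result that met the thresholds changed direction. Of the reruns of single fold changes, 562 kept direction and side of the threshold, 39 fell under it, 19 passed it and 28 changed sign. The counts of genes called in this paragraph include *Spry4*, which passed the filter only through its WT hypertrophic libraries. For WT hypertrophic against resting they were 5 with all libraries in 1 fit (*Dusp6*, *Fgfr3*, *Fgfr4*, *Fgfrl1* and *Spry4*). The main fit gave 3 (*Fgfr4*, *Fgfrl1* and *Spry4*), or 2 without *Spry4*. The counts were 2 for *aadd* against WT resting without the filter or with the replicate block. They were 2 for *aadd* against WT proliferative with a pseudocount of 1, median of ratios or quantile scaling, and 1 over the 4 groups without the filter. Pairing the libraries by a replicate block changed no call of these genes between WT resting and WT proliferative, while the adjusted calls over all genes went from 68 to 9. Elsewhere it let *Dusp6* pass in *aadd* against WT resting (adjusted *P* = 0.32 in limma) and took *Fgfr1* out of the F test over the 4 groups (0.057). Outside WT resting and proliferative the labels tie the libraries only by a number. There *r* was 0.0506, 0.28 and -0.0973 between WT resting and *aadd*, and 0.0657, 0.0628 and 0.111 between WT resting and WT hypertrophic.

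Counts here include *Spry4*, which its WT hypertrophic libraries alone brought through the filter. The ranges that use the WT hypertrophic group, those over the 4 groups included, thus cannot be weighed against the all-gene counts beside them. Leaving out each library gave 0 to 1 calls for WT proliferative against resting (508 to 809 over all genes), 2 to 6 for WT hypertrophic against proliferative (658 to 2007) and against resting (1196 to 2105), 0 to 2 for *aadd* against resting (547 to 997), 2 to 4 against proliferative (792 to 1093), 2 to 7 against hypertrophic (1205 to 2176), and 0 to 7 over the 4 groups (628 to 3074). The cause was not tested. The log2 FC that changed sign were small or spread widely. Between WT proliferative and resting, *Spry2* was 0.011 with median of ratios and 0.069 with quantile scaling, and the ranges without 1 library were -0.29 to 0.13 for *Spry2*, -0.86 to 0.038 for *Dusp6*, -3.13 to 0.26 for *Fgf18* and -0.14 to 0.59 for *Spry4*. Between WT hypertrophic and proliferative, quantile scaling gave 0.25 for *Fgf18* and -0.036 for *Spry2*, with ranges of -2.21 to 1.19 and -0.11 to 0.24. The ranges were -0.26 to 0.21 for *Spry2* in WT hypertrophic against resting, -0.47 to 0.011 for *Fgfr1* and -0.067 to 0.18 for *Fgfr2* in *aadd* against resting, and -0.094 to 0.63 for *Spry4* in *aadd* against proliferative. For *Fgfr1* in *aadd* against WT hypertrophic it was -0.16 to 0.24, and -0.015 with median of ratios.

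Over all genes, calls without the filter were 1632, 2120, 2769, 1300, 1857 and 2751, against 605, 1057, 1426, 717, 877 and 1456 with it, in the order in which the comparisons are reported. Without WT hypertrophic replicate 1, 1905 genes differed between WT hypertrophic and proliferative after adjustment against 0 with it, and 705 did with all libraries in 1 fit. An estimated 20 reads or fewer lay behind many values of *Fgf18* and *Spry1*, and 9.4 and 8.2 behind *Fgfr4* in WT hypertrophic replicates 2 and 3. With a pseudocount of 1 the log2 FC of *Fgfr4* in WT hypertrophic against proliferative was -2.61, and that of *Fgf18* -0.51. *Spry1* was fitted only without the filter.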
